A study of Homo sapiens with 32 samples.

Results

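Cytotoxic lymphocytes kill with proteins stored in granules, and 10 genes of that machinery are described here in 4 human T-cell lines treated with romidepsin, azacitidine or both. They are the granzymes GZMA, GZMB, GZMH, GZMK and GZMM, the pore-forming protein perforin (PRF1), granulysin (GNLY), the granule membrane protein NKG7, the cathepsin CTSW and the granule proteoglycan serglycin (SRGN). The genes were taken by symbol, 10 of the 25559 symbols in the count tables, and 9 of the 10 are among the 17801 symbols with enough counts to be tested. GZMH was not tested, since it had 45 counts in all 32 libraries together and only 1 library with 10 or more.

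Perforin inserts into the membrane of a target cell, and granzymes, a family of serine proteases, enter through the pores and cleave proteins inside it. Granulysin lyses membranes, serglycin holds the cationic granule proteins in place, and cathepsin W and NKG7 are found in the granules of cytotoxic T cells and natural killer cells. Malignant T-cell lines keep parts of this program, and DNA methylation and histone acetylation are known to bear on its genes in T cells.

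Each line gave 8 libraries of messenger RNA, with 1 library per condition, so the 4 lines serve as the replicates of a condition (n = 4). Cells grew for 96 hours with romidepsin and azacitidine together, azacitidine alone, romidepsin alone or no drug, and every library of a line came from the same cell line. Azacitidine, a cytidine analogue that traps DNA methyltransferases, had 3 doses per line, namely 125, 250 and 500 nM in PF382 and TLOm1 against 50, 125 and 250 nM in HH and H9. PF382 received 1.25 nM romidepsin, an inhibitor of histone deacetylases, and 1 nM was the dose for both TLOm1 and H9. The HH titles give 1.25 nM in the combinations and 1 nM for romidepsin alone. The labels give cutaneous T-cell lymphoma as the origin of HH and H9, T-cell acute lymphoblastic leukemia for PF382 and adult T-cell leukemia for TLOm1. Total counts ran from 16175077 to 32496676 per library, so that a floor of 3 counts lay between 0.0923 and 0.185 CPM (counts scaled to the library total in the usual way). Counting intervals and floors cover counting error only.

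The T-cell identity of the lines was checked on 9 markers, whose summed level ran from 1900 to 2250 CPM in PF382, 243 to 439 CPM in TLOm1, 791 to 1040 CPM in HH and 1100 to 1450 CPM in H9. Some defining markers were nearly absent: CD3D had 0 to 18 and CD3G 0 to 5 counts per library in TLOm1, and the kinase LCK had 0 to 33 counts in TLOm1 and 0 to 23 in HH. H9 had 8 to 15 counts of CD2 and 0 counts of CD8B, the beta chain of the cytotoxic co-receptor, in each library. In PF382 each of the 9 T-cell markers and of 3 co-receptors (CD4, CD8A and CD8B) reached 10 counts in at least 1 library.

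RefSeq promoter windows, 250 bases before to 50 bases after the gene start on GRCh38.p14, were at hand for 6 of the 10 genes. The windows of 4 genes are shown because PRF1, GNLY and GZMA were among the genes that changed most, while GZMB stayed at or near 0; capitals mark CpG, the dinucleotide at which DNA methyltransferases act. PRF1 is at chr10:70602692-70602991 on the minus strand, GNLY at chr2:85694108-85694407 on the plus strand, GZMA at chr5:55102396-55102695 on the plus strand and GZMB at chr14:24634141-24634440 on the minus strand.
PRF1: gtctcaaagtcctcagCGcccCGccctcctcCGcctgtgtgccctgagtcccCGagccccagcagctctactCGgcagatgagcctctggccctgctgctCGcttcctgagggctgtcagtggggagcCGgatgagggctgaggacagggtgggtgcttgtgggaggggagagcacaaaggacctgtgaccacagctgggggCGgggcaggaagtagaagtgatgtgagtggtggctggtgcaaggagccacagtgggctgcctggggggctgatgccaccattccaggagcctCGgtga
GNLY: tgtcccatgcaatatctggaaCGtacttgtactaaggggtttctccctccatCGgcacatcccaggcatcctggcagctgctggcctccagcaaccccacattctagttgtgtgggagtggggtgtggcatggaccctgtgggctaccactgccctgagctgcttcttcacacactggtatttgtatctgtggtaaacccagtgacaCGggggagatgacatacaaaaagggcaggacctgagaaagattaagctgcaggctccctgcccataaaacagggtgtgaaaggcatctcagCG
GZMA: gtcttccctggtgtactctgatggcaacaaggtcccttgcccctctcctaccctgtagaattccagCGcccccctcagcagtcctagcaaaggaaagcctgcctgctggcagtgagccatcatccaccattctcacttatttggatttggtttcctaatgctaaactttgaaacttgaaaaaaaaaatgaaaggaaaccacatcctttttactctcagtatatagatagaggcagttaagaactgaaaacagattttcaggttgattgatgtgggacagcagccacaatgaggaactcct
GZMB: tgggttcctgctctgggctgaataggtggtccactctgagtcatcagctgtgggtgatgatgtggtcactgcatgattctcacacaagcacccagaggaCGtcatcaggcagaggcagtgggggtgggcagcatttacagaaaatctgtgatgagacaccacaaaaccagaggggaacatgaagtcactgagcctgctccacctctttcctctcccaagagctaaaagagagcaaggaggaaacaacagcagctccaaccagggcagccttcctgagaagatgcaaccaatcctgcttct

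The PRF1 window holds 9 CpG, GNLY 4, and GZMA and GZMB 1 each, against a median of 14 over the 35116 promoters of the table. NKG7 has 5 and GZMH has 0 in their windows. The letters TGTGGT, bound by RUNX factors, were found on either strand once in PRF1, GNLY and GZMA and at 2 positions in GZMB. They were in neither the NKG7 nor the GZMH window, and 13.1% of all promoters hold them. The T-box letters GGTGTG occurred at 2 positions in GNLY (16.8% of all promoters), and the AP-1 letters TGANTCA once in GZMB (7.71%), with no overlap between these matches. TGACGTCA (1.85%) and TTCNNNGAA (7.66%) were in none of the 6 windows. A match describes letters only, and DNA methylation was not measured.

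The lines differed widely in how much of the program they expressed, and H9 had the highest level of 7 of the 10 genes. In H9 the median over 8 libraries was 195 CPM for PRF1 (146 to 211), 79.4 CPM for NKG7 (42.2 to 116), 73.4 CPM for CTSW (57.8 to 96.4), 62.1 CPM for GZMA (33.1 to 72.9), 40.2 CPM for GZMM (29 to 57.2), 39.8 CPM for GNLY (14.1 to 76.9) and 27.3 CPM for GZMK (14.4 to 39.8). No library of another line reached the lowest H9 library for any of these 7 genes. GZMM in PF382 came closest, with a median of 3.08 CPM and a highest library of 16.1 CPM, against 29 CPM in the lowest H9 library. Scaled by exon length, H9 had medians of 84.9 CPM per kilobase for NKG7, 77 for PRF1, 69.5 for GZMA, 54.1 for SRGN, 53.1 for CTSW, 42.5 for GZMM, 36.5 for GNLY and 18.1 for GZMK. On that scale SRGN stood at 230 CPM per kilobase in TLOm1, above every other gene of the group in any line.

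**Figure D1:**
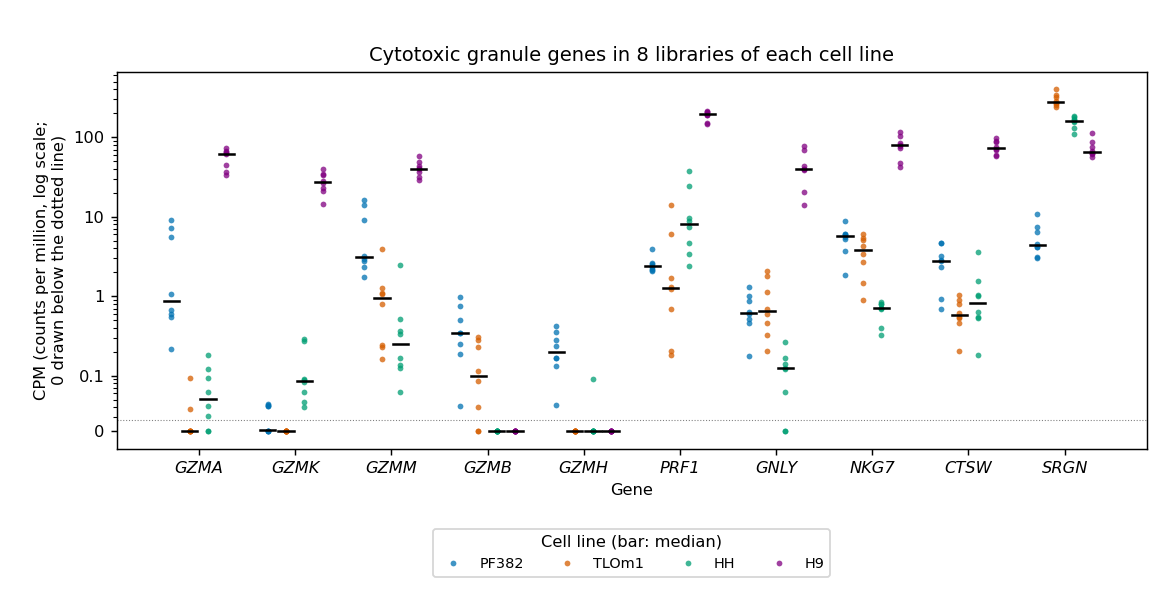
Level of each gene in CPM (log scale, with 0 drawn below the dotted line) in the 8 libraries of PF382, TLOm1, HH and H9, 1 point per library and a bar at the median. H9 lies above the other lines for GZMA, GZMK, GZMM, PRF1, GNLY, NKG7 and CTSW, SRGN is highest in TLOm1, and GZMB and GZMH have their highest libraries in PF382.

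Granzyme B, the caspase-like granzyme, and granzyme H, its neighbour on chromosome 14, were missing where the other genes were highest. GZMB had 0 counts in each of the 8 H9 and 8 HH libraries, which allows at most 0.0146 CPM over the 205791293 counts of H9 and 0.016 CPM over the 187630532 counts of HH. PF382 had 1 to 23 counts of GZMB per library and TLOm1 0 to 6. GZMH had 1 to 10 counts per library in PF382, 2 counts in 1 HH library and 0 in all others. GZMB and GZMH share 93 stretches of 31 bases in their transcripts, 5.91% of those of GZMB and 9.51% of those of GZMH, so a few reads could have been split between them.

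The order of the other lines differed by gene. GZMA followed the order H9, PF382, HH and TLOm1, with 24.4-fold more in PF382 than in HH (log2 difference 4.61 ± 0.71 SE, adjusted p = 3.45e-06) and no resolved difference between TLOm1, with 0 to 2 counts per library, and HH, with 0 to 4 (adjusted p = 0.241). For PRF1 the order was H9, HH and then PF382 and TLOm1, which did not differ beyond their spread (0.17 ± 0.49, adjusted p = 0.752). GZMM and NKG7 ran H9, PF382, TLOm1 and HH, without a resolved step from TLOm1 to HH for GZMM (0.59 ± 0.46, adjusted p = 0.254) or from PF382 to TLOm1 for NKG7 (0.39 ± 0.31, adjusted p = 0.246). CTSW was 3.53-fold higher in PF382 than in TLOm1 (adjusted p = 2.34e-05), and TLOm1 and HH were not resolved (adjusted p = 0.0567). SRGN followed another order than the rest, with medians of 278 CPM in TLOm1, 162 CPM in HH, 65.4 CPM in H9 and 4.35 CPM in PF382, each step past the threshold (adjusted p = 6.5e-06 for TLOm1 over HH, 3.69e-09 for HH over H9). Of all tested genes 81.3% differed between PF382 and TLOm1, 79.1% between PF382 and HH, 75.7% between PF382 and H9, 71.5% between TLOm1 and HH, 78.7% between TLOm1 and H9 and 77.8% between HH and H9. The 9 genes gave 4, 9, 9, 6, 9 and 8 such calls in the same order, so differences of this kind are the rule between these lines. Among the 9, GZMK reached 10 counts only in H9 libraries and GZMB only in PF382 libraries. The low-count filter thus admitted each through the line where it is high, and its calls against that line are no independent support. All tests of levels come from edgeR's quasi-likelihood fit of all 32 libraries, and the 8 libraries of a line share that line.

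Both drugs together raised 6 of the 9 tested genes at 250 nM azacitidine, the highest dose shared by the 4 lines: GZMM, PRF1, GZMA, GNLY, CTSW and SRGN were higher than in untreated cells and 0 were lower. Over all tested genes 23.0% were called in either direction with 14.2% called higher and 8.76% lower. The median change was 1.36 on the log2 scale over the 9 genes, against 0.04 over all 17801. A gene was called where edgeR's quasi-likelihood test, with cell line as a term, gave a Benjamini-Hochberg adjusted p below 0.05, and each standard error comes from the fit of all 32 libraries. With no other libraries than the 8 compared in the model, 0 of the 9 were called, and 22 of all genes. NKG7 (0.38 ± 0.44), GZMK (-0.26 ± 0.58) and GZMB (0.87 ± 1.42) did not pass the threshold.

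**Figure D2:**
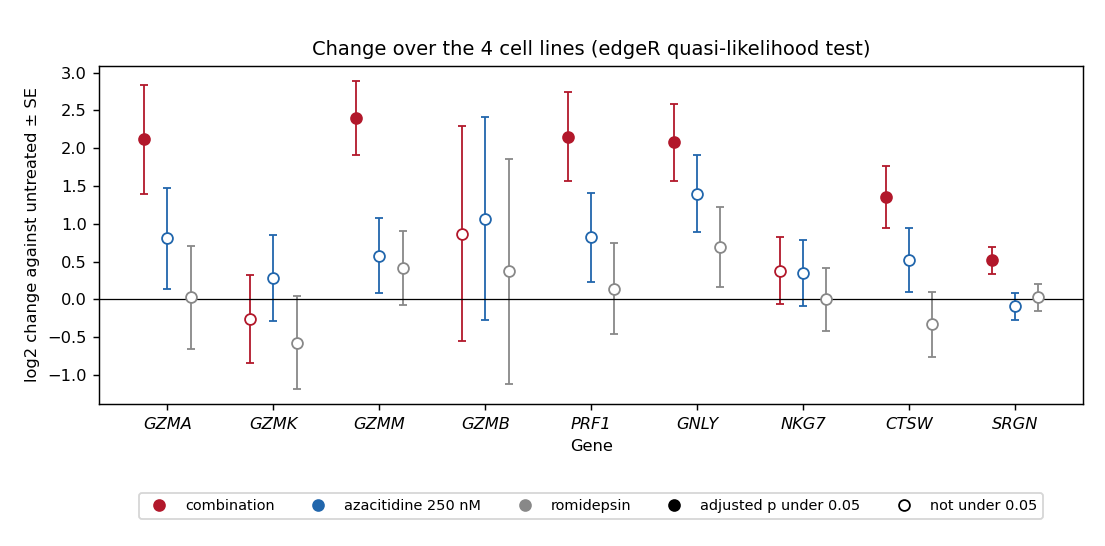
Change against untreated cells (log2, ± SE, over the 4 lines) for the combination with 250 nM azacitidine, azacitidine at 250 nM and romidepsin alone, with filled points where the adjusted p is under 0.05. Filled points appear only for the combination, at GZMA, GZMM, PRF1, GNLY, CTSW and SRGN.

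The perforin difference lay mainly in TLOm1 and HH. In TLOm1 PRF1 was at 1.7, 5.99 and 14.2 CPM in the combinations with 125, 250 and 500 nM azacitidine, at 0.699, 1.23 and 1.32 CPM with azacitidine alone, at 0.185 CPM with romidepsin alone and at 0.203 CPM untreated (5 counts). HH had 9.58, 24.1 and 38.1 CPM in the combinations with 50, 125 and 250 nM, 4.7, 7.51 and 8.75 CPM with azacitidine alone, 3.38 CPM with romidepsin alone and 2.39 CPM untreated. In both lines every combination library was above all libraries with 1 drug or none, and the level climbed with each dose step. PF382 stayed between 2.15 and 3.9 CPM in the combinations, 2.35 and 2.58 CPM with azacitidine, 2.23 CPM with romidepsin and 2.05 CPM untreated. H9 had 192 to 211 CPM in the combinations, 191 to 207 CPM with azacitidine alone, 151 CPM with romidepsin alone and 146 CPM untreated. PF382 and H9 thus moved little, with overlapping ranges for the combinations and azacitidine alone.

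At 250 nM the PRF1 change against untreated was 4.42-fold over the lines (log2 2.15 ± 0.59, adjusted p = 0.0123), made of line changes of 4.42 in TLOm1, 3.92 in HH, 0.49 in H9 and 0.31 in PF382 on the log2 scale. The ratio was 29.5 in TLOm1 (counting interval 12.3 to 92.4) and 16 in HH (12.2 to 21.2). Without HH the estimate was 1.32 (adjusted p = 0.191) and without TLOm1 1.76 (adjusted p = 0.055). At the top dose of TLOm1, 500 nM, the combination had 275 counts against 5 untreated, a ratio of 70.1 (29.7 to 218).

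Granzyme M, a granzyme known best from natural killer cells, had a higher value in the 250 nM combination than untreated in each of the 4 lines. PF382 had 9.07, 14.1 and 16.1 CPM in the combinations by rising dose, 2.74, 2.34 and 3.23 CPM with azacitidine alone, 2.93 CPM with romidepsin alone and 1.75 CPM untreated. TLOm1 had 0.809, 1.28 and 3.94 CPM in the combinations, 0.247, 1.07 and 1.1 CPM with azacitidine alone, 0.231 CPM with romidepsin and 0.163 CPM untreated (4 counts). HH had 0.126, 0.512 and 2.47 CPM in the combinations, 0.0618, 0.338 and 0.363 CPM with azacitidine alone, 0.135 CPM with romidepsin and 0.165 CPM untreated (4 counts). The highest-dose combination was the top library in each of these 3 lines, and in HH it stood far above the lower doses. H9, already high, had 43.1, 49.2 and 57.2 CPM in the combinations, 36.2, 39.6 and 29 CPM with azacitidine alone, 40.8 CPM with romidepsin and 31.9 CPM untreated.

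GZMM was 5.28-fold higher in the combination at 250 nM than untreated (log2 2.40 ± 0.49, adjusted p = 0.00143), higher in 4 of 4 lines by 3.36 in HH, 2.9 in PF382, 2.49 in TLOm1 and 0.8 in H9. It is the one gene of the 6 that kept its call whichever line was left out, with adjusted p between 0.00166 and 0.0355. GZMM also was the one gene of the 9 whose level followed the azacitidine dose past the threshold, by 0.47 ± 0.17 per doubling (adjusted p = 0.0494), where 19.2% of all genes were called. That slope was 0.53 without PF382 (adjusted p = 0.0794), 0.3 without TLOm1 (0.323) and 0.31 without HH (0.25), none of them called, and 0.81 without H9 (0.00324). PRF1 had the same slope, 0.47 ± 0.18, with an adjusted p of 0.0655, and 0.67 without H9 (adjusted p = 0.0412).

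**Figure D3:**
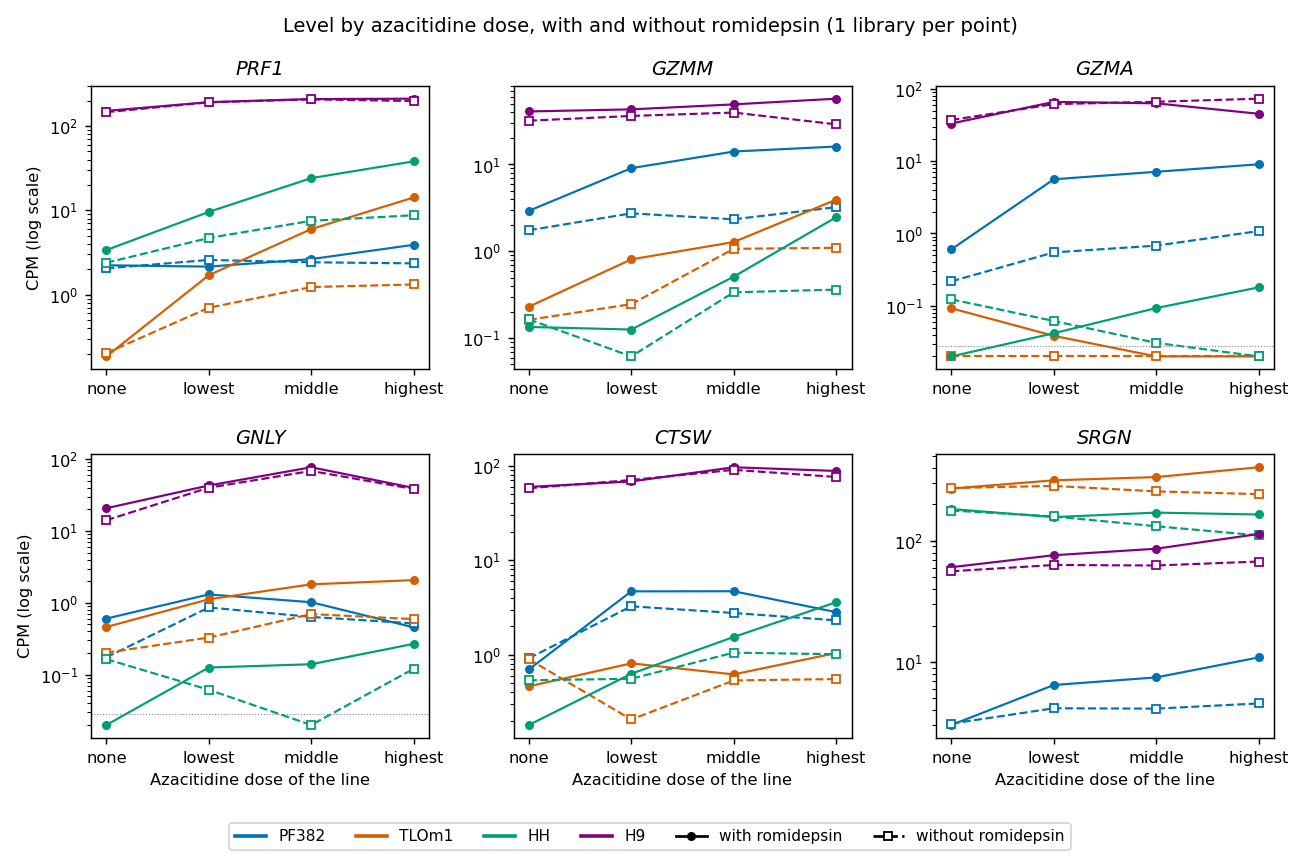
CPM (log scale) of PRF1, GZMM, GZMA, GNLY, CTSW and SRGN by azacitidine dose of the line, 1 library per point, with romidepsin (solid, filled) and without (dashed, open); points below the dotted line are libraries with 0 counts. The solid and dashed lines part for PRF1 in TLOm1 and HH and for GZMA and GZMM in PF382, while they run close together in H9 for PRF1 and GNLY.

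Granzyme A, a tryptase that cleaves after basic residues, responded to the combination in PF382. There it had 5.61, 7.12 and 9.04 CPM in the combinations (133, 167 and 218 counts), 0.548, 0.679 and 1.08 CPM with azacitidine alone, 0.604 CPM with romidepsin alone and 0.218 CPM untreated (5 counts). In H9 it had 65.8, 62.9 and 45.1 CPM in the combinations, 61.3, 66.1 and 72.9 CPM with azacitidine alone, 33.1 CPM with romidepsin and 37 CPM untreated. The 2 lines with GZMA thus differed: in PF382 the combination was above everything else, and in H9 azacitidine alone reached at least as high. TLOm1 had 0 to 2 counts and HH 0 to 4 counts in each library, where nothing could be resolved. The PF382 ratio at 250 nM was 32.6 (counting interval 13.7 to 102) over untreated and 10.5 (6.27 to 18.8) over azacitidine alone.

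The GZMA change over the 4 lines, 2.12 ± 0.72 (adjusted p = 0.0367), rested on PF382: its own change was 4.51, against 0.33 in HH, 0.24 in H9 and 0 in TLOm1. Without PF382 the estimate was 0.27 (adjusted p = 0.707), without TLOm1 2.02 (0.0988) and without HH 2.07 (0.103), while without H9 it was 3.56 (0.0356). The call also ended with DESeq2 (1.86, adjusted p = 0.202). GZMK, which lies next to GZMA on chromosome 5 and is another tryptase, was measurable in H9 only. H9 had 27.9, 26.7 and 23.2 CPM of GZMK in the combinations, 33.3, 34.5 and 39.8 CPM with azacitidine alone, 14.4 CPM with romidepsin and 21 CPM untreated. In that line each azacitidine library was above each combination library for GZMK, whereas the 2 ranges overlapped for GZMA. PF382 had 0 or 1 count and HH 1 to 7 counts of GZMK per library, and TLOm1 had 0 in all 8.

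Granulysin was the gene with the highest estimate after azacitidine alone. H9 had 42.9, 76.9 and 39.7 CPM in the combinations, 40, 68.3 and 38.3 CPM with azacitidine alone, 20.7 CPM with romidepsin and 14.1 CPM untreated. TLOm1 had 1.12, 1.81 and 2.07 CPM in the combinations, 0.329, 0.698 and 0.594 CPM with azacitidine, 0.462 CPM with romidepsin and 0.203 CPM untreated. PF382 had 1.31, 1.02 and 0.456 CPM in the combinations, 0.862, 0.637 and 0.518 CPM with azacitidine, 0.604 CPM with romidepsin and 0.175 CPM untreated. In H9 the middle dose was the peak with or without romidepsin, and in PF382 the lowest dose was. HH had 0 to 6 counts per library and showed no resolvable change.

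GNLY was 4.22-fold higher in the combination at 250 nM (log2 2.08 ± 0.51, adjusted p = 0.00582), with line changes of 2.73 in TLOm1, 2.03 in PF382 and 1.45 in H9 and 0.49 in HH on 6 counts against 4, and it was 2.25 without H9 (adjusted p = 0.0676). It was the one gene of the group called in the combination at 125 nM, at 2.27 ± 0.49 (adjusted p = 0.0075), where 7.00% of all genes were called, and there it had 1.93 without H9 (adjusted p = 0.199). With azacitidine alone its estimate was 1.72 ± 0.49 at 125 nM (adjusted p = 0.138) and 1.4 ± 0.51 at 250 nM (adjusted p = 0.104).

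Cathepsin W, a papain-like cysteine protease, had higher values in the 250 nM combination than untreated in PF382, HH and H9 and a lower one in TLOm1. PF382 had 4.68, 4.69 and 2.82 CPM in the combinations, 3.25, 2.76 and 2.31 CPM with azacitidine alone, 0.697 CPM with romidepsin and 0.916 CPM untreated. HH had 0.628, 1.54 and 3.59 CPM in the combinations, 0.556, 1.05 and 1.01 CPM with azacitidine, 0.18 CPM with romidepsin and 0.535 CPM untreated. H9 had 68.2, 96.4 and 88.1 CPM in the combinations, 70.6, 90.5 and 76.1 CPM with azacitidine, 59.7 CPM with romidepsin and 57.8 CPM untreated. The peak fell on the lower doses in PF382 and on the middle dose in H9. In HH it fell on the highest dose in the combinations and on the middle dose with azacitidine alone (1.05 against 1.01 CPM). TLOm1 had 5 to 22 counts per library, at 0.618 CPM in the 250 nM combination and 0.894 CPM untreated. The change at 250 nM was 1.36 ± 0.41 (adjusted p = 0.0207), and it was 1.07 without PF382 (adjusted p = 0.147), 0.87 without HH (0.175) and 1.57 without H9 (0.0781).

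Serglycin, expressed by most blood cells and not only cytotoxic ones, changed least of the 6. At 250 nM azacitidine the combination had 7.46, 336, 165 and 114 CPM in PF382, TLOm1, HH and H9, azacitidine alone had 4.12, 256, 111 and 67.5 CPM, romidepsin alone had 3.02, 270, 183 and 60.6 CPM, and untreated cells had 3.1, 273, 178 and 56.1 CPM. The combination was above azacitidine alone in each line, and above untreated in all but HH. The change against untreated was 1.43-fold (log2 0.52 ± 0.18, adjusted p = 0.0369), and it was 0.37 without PF382 (adjusted p = 0.144), 0.61 without TLOm1 (0.0571) and 0.35 without H9 (0.318). In PF382 the top dose brought 10.9 CPM in the combination, a ratio of 3.51 over untreated (counting interval 2.69 to 4.63).

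NKG7, a membrane protein needed for granule release in mice, went different ways in different lines and was not called over the 4. H9 had 84.8, 116 and 74.2 CPM in the combinations, 80.5, 105 and 78.4 CPM with azacitidine, 42.2 CPM with romidepsin and 46.7 CPM untreated. TLOm1 had 6.09, 3.42 and 1.45 CPM in the combinations, 5.43, 2.67 and 0.891 CPM with azacitidine, 5.04 CPM with romidepsin and 4.31 CPM untreated. In TLOm1 the level was lower at each higher dose, down to 21 counts at 500 nM azacitidine against 106 untreated (ratio 0.207, counting interval 0.123 to 0.333), whereas PF382 had its highest library, 8.81 CPM, at that dose. HH had 8 to 19 counts per library.

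Neither drug alone moved a gene of the group past the threshold over the 4 lines. Romidepsin alone called 0 of the 9 (0.0169% of all genes), 0 at an unadjusted p under 0.05, with a median of 0.03 over the 9 and 0.01 over all genes. Azacitidine at 250 nM called 0 of the 9 (5.99% of all genes), with 1 at an unadjusted p under 0.05 (GNLY), and at 125 nM 0 of the 9 (0.461%), again with 1. DESeq2 called 0 of the 9 in each of these comparisons. The median over the 9 was 0.58 for azacitidine at 250 nM, against 0.02 over all genes.

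Romidepsin added to 250 nM azacitidine raised GZMM by 1.82 ± 0.48 (adjusted p = 0.0296) and SRGN by 0.61 ± 0.18 (adjusted p = 0.0437), 2 of the 9, where 5.67% of all genes were called. Leaving out a line ended most of these calls. SRGN lost its call whichever line was left out (adjusted p from 0.0805 to 0.179), and GZMM without PF382 (1.43, adjusted p = 0.229), HH (1.49, 0.163) or H9 (1.87, 0.0531). Azacitidine added to romidepsin raised CTSW by 1.69 ± 0.42 (adjusted p = 0.00969), GZMM by 1.98 ± 0.48 (0.00836) and PRF1 by 2.01 ± 0.59 (0.026), 3 of the 9, where 14.1% were called. CTSW lost this call without PF382 (1.37, adjusted p = 0.0875) or HH (1.09, 0.124) and was at 2.55 without H9 (0.0228), GZMM without PF382 (1.74, 0.0808) or HH (1.49, 0.0793), and PRF1 without TLOm1 (1.62, 0.104), HH (1.25, 0.259) or H9 (2.67, 0.0559). These comparisons share the combination libraries. In HH the titles give 1.25 nM romidepsin in the combinations and 1 nM alone, so azacitidine added to romidepsin is not matched on romidepsin dose there. A difference between the combination and the added single-drug changes was called for 0 of the 9 and for 0 of all 17801 genes by edgeR and by DESeq2. At an unadjusted p under 0.05 it held 596 of the 17801 genes, a share below the 0.05 that this threshold passes with no departure. Of the 9 they included 1, SRGN, with an estimate of 0.58 ± 0.25. GZMM had an estimate of 1.41 ± 0.68 and was not under 0.05 (unadjusted p = 0.0517).

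Within single lines, 4 libraries with romidepsin were set against 4 without, matched on azacitidine. Each value is thus 1 effect over the 4 azacitidine levels, none included. In PF382 romidepsin raised GZMA by 3.09 ± 0.26, GZMM by 1.93 ± 0.24 and SRGN by 0.73 ± 0.20 (adjusted p = 1.81e-07, 9.37e-06 and 0.00912 in that order). With romidepsin NKG7 fell by 0.43 ± 0.14 (adjusted p = 0.0206) and GZMB fell by 1.68 ± 0.49 (0.0173). Those were 5 of 9 genes, where 30.7% of all genes were called. GZMB there rests on 1 to 8 counts with romidepsin and 8 to 23 without, and the call ended with DESeq2 (adjusted p = 0.532). GZMB reached 10 counts only in the 3 PF382 libraries with azacitidine alone. The low-count filter thus admitted it through the side without romidepsin. Its call here, and its part in the test of equal effects below, are not independent of that filter. In TLOm1 romidepsin raised PRF1 by 2.48 ± 0.34 (adjusted p = 4.74e-05), GNLY by 1.52 ± 0.30 (0.000669) and GZMM by 1.16 ± 0.40 (0.035), and GZMB, at 0 to 6 counts per library, was called higher too (a call lost with DESeq2, adjusted p = 0.222, without the lowest dose, 0.0639, and without the middle dose, 0.139), 4 of 9 where 32.6% of all genes were called. In HH PRF1 rose by 1.54 ± 0.21 (adjusted p = 3.82e-05) and GZMM by 1.64 ± 0.55 (0.033), 2 of 9 where 27.7% were called. In H9 GZMK fell by 0.50 ± 0.12 (adjusted p = 0.0205), 1 of 9 where 4.47% were called. Romidepsin alone against untreated, 1 library each, gave log2 changes in PF382 of 1.16 for GZMA, 0.7 for GZMM and -0.05 for SRGN. For NKG7 and GZMB these changes were -0.98 and -0.68 in that line. In TLOm1 they were -0.12 for PRF1, 0.92 for GNLY, 0.34 for GZMM and 1.35 for GZMB. HH had 0.5 for PRF1 and -0.18 for GZMM, and H9 had -0.54 for GZMK.

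The romidepsin effect was called higher for GZMM in PF382, TLOm1 and HH, for PRF1 in TLOm1 and HH, for GNLY in TLOm1 and for GZMA and SRGN in PF382, while GZMB was called lower in PF382 and higher in TLOm1, NKG7 lower in PF382 and GZMK lower in H9. A test of equal romidepsin effects in the 4 lines was past the threshold for GZMA (adjusted p = 4.95e-06), PRF1 (0.000119), GZMM (0.00682), GZMB (0.0175), GNLY (0.0243) and NKG7 (0.0282), 6 of the 9, with 33.0% of all genes called. Not every within-line call was stable to the doses used. Without the highest dose GZMM was at 0.44 in HH (adjusted p = 0.715) and 0.66 in TLOm1 (0.313), NKG7 at -0.3 (0.154; -0.33 and 0.0663 without the pair lacking azacitidine) and GZMB at -1.22 (0.0668) in PF382, and without the lowest dose GZMM was at 1.66 in HH (0.0818) and 1.06 in TLOm1 (0.134). GZMK in H9 was at -0.58 without the lowest dose (0.093) and at -0.55 without the middle dose (0.175), where SRGN in PF382 was at 0.67 (0.0805) and GZMB at -1.77 (0.0855). The calls of GZMA and GZMM in PF382, PRF1 in TLOm1 and HH and GNLY in TLOm1 held in each of these fits.

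**Figure D4:**
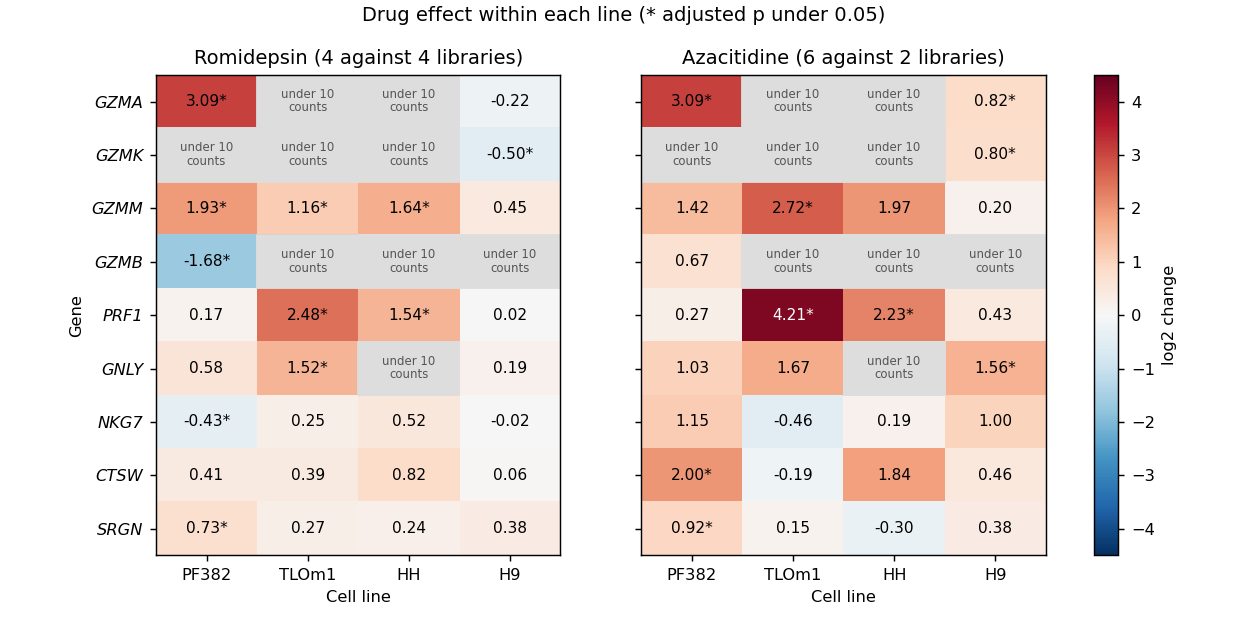
Change (log2, colour and number) of 9 genes within each line for romidepsin (4 libraries with against 4 without, over all azacitidine levels) and azacitidine (6 against 2), with an asterisk where the adjusted p is under 0.05. Grey cells had fewer than 10 counts in every library of the line. The azacitidine values pool libraries with and without romidepsin. Romidepsin effects are strong for GZMA in PF382 and PRF1 in TLOm1 and HH, and azacitidine effects for PRF1 in TLOm1 and GZMA in PF382.

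Azacitidine at any dose, 6 libraries against 2 without it, was matched on romidepsin as given or not. It raised GZMA by 3.09 ± 0.43 (adjusted p = 0.00019), CTSW by 2 ± 0.48 (0.0114) and SRGN by 0.92 ± 0.23 (0.0145) in PF382, 3 of 9 where 8.33% of all genes were called. In TLOm1 it raised PRF1 by 4.21 ± 0.99 (adjusted p = 0.00581) and GZMM by 2.72 ± 0.92 (0.0414), 2 of 9 where 18.7% were called. HH had PRF1 higher by 2.23 ± 0.54 (adjusted p = 0.0137) and GZMK, at 1 to 7 counts, lower, 2 of 9 where 5.87% were called. In H9, the line with the highest levels, GNLY rose by 1.56 ± 0.34 (adjusted p = 0.00854), GZMK by 0.8 ± 0.18 (0.012) and GZMA by 0.82 ± 0.23 (0.042), 3 of 9 where 5.86% were called. These values pool libraries with and without romidepsin. Azacitidine alone at 250 nM against untreated, 1 library each, gave log2 changes in PF382 of 1.31 for GZMA, 1.48 for CTSW and 0.38 for SRGN. TLOm1 had 2.23 for PRF1 and 2.26 for GZMM, and HH had 1.82 for PRF1 and -1.63 for GZMK. H9 had 1.43 for GNLY, 0.9 for GZMK and 0.96 for GZMA. Unequal effects in the 4 lines were called for GZMK (adjusted p = 0.00766), GZMA (0.0156), SRGN (0.0251) and PRF1 (0.0363), 4 of the 9, with 10.7% of all genes called. Without the middle dose GZMA in PF382 alone kept its call, and in H9 the calls over all genes dropped to 54 from the 1044 of the full fit. PRF1 in TLOm1 was then at 4.27 (adjusted p = 0.0664) and in HH at 2.18 (0.192), GNLY in H9 at 1.2 (0.219), GZMA at 0.77 (0.384) and GZMK at 0.79 (0.225). CTSW and SRGN in PF382 were at 1.93 (adjusted p = 0.15) and 0.94 (0.12), GZMM in TLOm1 at 2.79 (0.146) and GZMK in HH at -1.98 (0.135). Without the highest dose GZMM in TLOm1 was at 2.09 (adjusted p = 0.0527).

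Once each line's mean was removed, GZMM and PRF1 varied together over the 32 libraries with a Pearson r of 0.76, GZMA and SRGN with 0.73, CTSW and GZMM with 0.66 and GNLY and PRF1 with 0.63. NKG7 had an r of -0.22 with GZMM and -0.18 with PRF1, and GZMK one of -0.03 with GZMM. The libraries share the lines and the treatments, so these values describe the pattern only. The genes outside the group most like PRF1 by the same measure were C1orf38 (0.933) and SOD3 (0.927), those most like GZMM were JUB and ZNF516 (0.909 each), and those most like GZMA were SNCB (0.881) and GALNT14 (0.855). SRGN was closest to VCL (0.905) and BST2 (0.883), CTSW to PRAME (0.787) and PPP1R1B (0.781), and GNLY to EPB49 (0.766) and UBQLN4 (0.759).

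Some genes that act on granule proteins moved in the same comparison. Of 6 tested genes for granzyme processing and inhibition, 5 were higher in the combination at 250 nM and 0 lower, with a median of 1.11: CST7, a cathepsin inhibitor of granules (2.01 ± 0.63, adjusted p = 0.0243), CTSH, a cathepsin that can process progranzyme B (1.53 ± 0.48, 0.0261), and the intracellular protease inhibitors SERPINB6 (1.23 ± 0.39, 0.0248) and SERPINB9, which inhibits granzyme B (0.99 ± 0.33, 0.0336), were the 4 with the highest changes. CTSC, another cathepsin of that list, was not called (0.16 ± 0.11, adjusted p = 0.293). CST7 had 24, 2, 326 and 1716 counts in the 250 nM combination of PF382, TLOm1, HH and H9, against 12, 3, 123 and 240 untreated, so nearly all of its counts came from H9 and HH. In the same order SERPINB6 had 9, 6, 2686 and 135 counts against 0, 0, 2407 and 31 untreated. SERPINB9 had 125, 4, 1159 and 55 counts against 136, 1, 349 and 30 untreated. With 250 nM azacitidine alone 1 of the 6 was higher, CST7 at 2.08 ± 0.62 (adjusted p = 0.0488), and the median was 0.69. CTSH was then at 1.4 ± 0.48 (adjusted p = 0.0881). CST7 had 35.2 CPM in HH and 43.8 in H9 with azacitidine alone, against 14.6 and 77.7 CPM in the combination. Of 6 genes of lysosomal sorting and granule membranes 5 were higher and 0 lower, with a median of 0.35, among them LAMP3 (1.9 ± 0.60, adjusted p = 0.0257), CD63 (0.54 ± 0.15, 0.0139), LAMP2 (0.39 ± 0.10, 0.00928) and LAMP1 (0.32 ± 0.12, 0.0484). Only 1 of 10 tested genes of granule exocytosis was called, the small GTPase RAB27A, at 0.8 ± 0.16 (adjusted p = 0.000978), and the median of that list was -0.02. These lists are short, and 23.0% of all genes were called in this comparison.

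Transcription factors of the cytotoxic program were called higher in the combination at 250 nM in 8 of 16 cases and lower in 0, with a median of 0.75. Over all tested genes 14.2% were called higher and 8.76% lower. T-bet (TBX21), a T-box factor that drives PRF1 and GZMB transcription in T cells, was at 4.39 ± 0.80 (adjusted p = 0.000521). It had 90, 20, 49 and 111 counts in the 250 nM combination of PF382, TLOm1, HH and H9, 1, 1, 0 and 54 with 250 nM azacitidine, 8, 4, 4 and 12 with romidepsin and 4, 0, 0 and 16 untreated. The combination was the highest of the 4 conditions in each line. HOPX, a homeodomain protein of effector T cells, had 8 and 3 counts in the combination in PF382 and TLOm1 and 0 in HH and H9, against 0 in every untreated library. ZNF683 (Hobit), a factor of tissue-resident lymphocytes, was at 1.94 ± 0.69 (adjusted p = 0.0443), with 53 counts in the combination of PF382 against 3 untreated and 35 against 30 in H9. ID2, an inhibitor of E proteins, was at 1.82 ± 0.41 (adjusted p = 0.0034).

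Other effector molecules were mixed, in a comparison where 14.2% of all genes were called higher and 8.76% lower. Of 8 tested, 3 were higher in the combination at 250 nM and 1 lower: the chemokines XCL1 (2.49 ± 0.73, adjusted p = 0.0169) and XCL2 (2.27 ± 0.79, 0.0421) and TNF (1.15 ± 0.27, 0.00456) rose, and the chemokine CCL3 fell by 1.67 ± 0.40 (0.00779). XCL1 had 24, 1, 3 and 303 counts in the combination of PF382, TLOm1, HH and H9, 27, 2, 4 and 232 with azacitidine alone and 1, 2, 3 and 56 untreated, and its change with azacitidine alone was 2.42 ± 0.74 (adjusted p = 0.0538). XCL2 had 18 counts in the combination of H9 against 5 untreated, and 0 or 1 in these libraries of the other lines. CCL3 had 203 and 72 counts in the combination of TLOm1 and HH against 702 and 265 untreated, and 0 in these libraries of PF382 and H9. Of the granule proteases encoded beside the granzymes on chromosomes 14 and 19, only 2 of 6 could be tested, and CFD, complement factor D, was higher (1.73 ± 0.43, adjusted p = 0.00658).

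Markers of natural killer cells, which share the granule program, were measured beside these genes. The sum of 8 such markers was 37.6, 2.62, 8.31 and 73.3 CPM in the 250 nM combination of PF382, TLOm1, HH and H9, against 8.77, 0.61, 7.98 and 39.2 CPM untreated. Of 5 tested, 4 were higher in the combination, where 14.2% of all genes were. KLRD1, KLRC1 and FCGR3A, defining receptors of that lineage, never exceeded 5 counts in a library. Markers of unrelated cell types were also higher in the same comparison, with 2 of 4 tested epithelial markers (KRT8, 4.26 ± 0.47, and KRT18, 4.24 ± 0.57), 2 of 5 fibroblast markers, 3 of 7 myeloid and mast cell markers and 2 of 5 B-cell markers, and 0 lower in these lists. The summed epithelial markers were at 103, 194, 2.78 and 189 CPM in the combination of PF382, TLOm1, HH and H9, against 5.06, 48.7, 0.823 and 103 CPM untreated. The part of these markers in the results was not tested. In cultures of this kind, more cells expressing a gene and more RNA per cell cannot be told apart. T-cell markers had 0 of 9 higher and 2 lower (CD3E, -0.36 ± 0.09, and CD247, -0.6 ± 0.18), and of 3 co-receptors CD8A was higher by 1.84 ± 0.46 (adjusted p = 0.00687) while CD8B (-0.32 ± 0.71) and CD4 (-0.58 ± 0.28) did not pass the threshold.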

How the data were processed

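Polyadenylated RNA is named in the labels' protocols, which also name depletion of ribosomal RNA, from 32 libraries of 4 human T-cell lines. Per the labels, the authors deposited 1 table of raw read counts per gene symbol for each library. The submitters' processing notes name STAR, DESeq2, limma and GRCh37.p2; which tool counted the reads, on which annotation and with which strand setting is not stated there or in the labels.

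From these counts, CPM were computed by scaling to the library total. Changes were tested with edgeR 4.0.16 (R 4.3.3, limma 3.58.1): TMM scaling, filterByExpr (minimum count 10, minimum total 15), quasi-likelihood F tests and Benjamini-Hochberg adjustment over all 17801 tested genes at 0.05. The comparisons over lines have line as a term, with 19 residual degrees of freedom (25 for the dose slope); those within lines have 12 for romidepsin and 20 for azacitidine. Each line has 1 library per condition and no second culture. P-values of the comparisons over lines therefore measure how changes spread between these lines and libraries. Those within a line measure the spread between libraries at different doses. Those of levels between lines measure the spread between libraries, not between lines of a disease. Libraries of the same line deviated together (60 pairs of same-line libraries, r from 0.86 to 0.973), since they come from the same cell line, which is why line is the block. Ratios between single libraries have 95% exact Poisson-based intervals. A count of 0 allows up to 3 counts. DESeq2 1.42.0, RLE scaling, other low-count filters, fits without the line term, fits of the compared groups alone and fits leaving out each line or dose were the alternatives.

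Counts were simulated for the combination at 250 nM against untreated (17801 genes). Of 100 genes changed 4-fold 86 were recovered, and of 100 genes changed 2-fold 65 were. There were 15 false calls, 9.04% of the calls, a share above the adjusted p threshold of 0.05. Recovery of genes whose change differs between lines was not tested. The romidepsin effect differed between lines for 6 of the 9 genes. Genes outside the group were named by a rule, at most 4 per list by size of change among those past the threshold, and 2 per gene for likeness. The members and lists were chosen with earlier results of these data known. Exon lengths are from GENCODE and promoters from RefSeq (GRCh38.p14), a later build than the authors', so they were joined by symbol only.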

Additional observations from a re-analysis of the deposited data

Results flagged for a closer look

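The change from untreated in 1 line stood apart from the other 3 in 6 of 45 sets of 4 lines checked with Dixon's criterion. Chance flags about 1 set in 20 among independent normal values. Some sets here hold lines at 0 counts, and the treatments share each line's untreated library, so the 2 rates cannot be compared. GZMA in the combination at 250 nM was at 4.51 in PF382 on the log2 scale. In the same comparison GZMB was at 1.6 in TLOm1, on 6 counts or fewer, and GZMK at -1.14 in HH, on 7 counts or fewer. GNLY in HH was at -0.3 with azacitidine at 250 nM and at -0.15 in the combination at 125 nM, on 6 counts or fewer. NKG7 in TLOm1 was at -0.66 with azacitidine at 250 nM.

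The effect of romidepsin differed between the lines by a test of equal effects for GZMA (adjusted p = 4.95e-06), PRF1 (0.000119), GZMM (0.00682), GZMB (0.0175), GNLY (0.0243) and NKG7 (0.0282). The effect of azacitidine differed between the lines for GZMK (adjusted p = 0.00766), GZMA (0.0156), SRGN (0.0251) and PRF1 (0.0363).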

How the results depend on the processing

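Of 768 alternative values for single genes, 643 kept direction and call, 98 lost the call, 27 gained one and 0 changed sign. Without the line as replicate block, 0 genes of the 9 were called in the combination at 250 nM against untreated, azacitidine or romidepsin, in the combination at 125 nM and for the dose slope. In fits of the compared groups alone 0 were called in each of these 4 comparisons. Leaving out a line gave 3 called genes (6 in full) for the combination at 250 nM against untreated, 0 to 1 (2 in full) against azacitidine, 1 to 2 (3 in full) against romidepsin and 0 to 2 (1 in full) for the slope. Leaving out a dose gave 1 to 16 azacitidine calls within lines (10 in full). DESeq2 called 5 genes against romidepsin, 2 at 125 nM and 2 for the slope, and without a low-count filter 1 gene was called against azacitidine and 0 for the slope. An alternative chosen after seeing the data, leaving out the pair of libraries without azacitidine, gave 16 romidepsin calls within lines (12 in full). The causes were not tested. Depth limits GZMB, GZMH and, outside H9, GZMK, which had few or 0 counts.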
